A study of Homo sapiens with 6 samples.

Results

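The mitochondrial genome encodes 7 subunits of respiratory complex I, and 6 of them, MT-ND1, MT-ND2, MT-ND3, MT-ND4L, MT-ND4 and MT-ND5, are read from its plus strand. These 6 mRNAs are the subject here. They were taken by gene name from the analysed rows of the isoform expression table, where 6 of 99 isoforms carried these names. The other 93 isoforms were 31 further transcripts of the mitochondrial genome and 62 isoforms from elsewhere. The RNA came from LNCaP-AI, a castration-resistant cell line of prostate cancer origin. The cells had either a hairpin that targets the circular RNA hsa_circ_0092339 (sh_0092339, 3 libraries) or the vector as negative control (NC, 3 libraries). All 3 sh_0092339 libraries carry the same hairpin name, so an effect through the circular RNA and an effect of the hairpin on another RNA cannot be told apart. Nothing in the labels ties the replicates to separate cultures, so the p-values reflect the spread between libraries, which may be technical only.

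Complex I oxidises NADH, passes the electrons to ubiquinone and pumps protons across the inner mitochondrial membrane. Its mitochondrially encoded subunits lie in the membrane arm: ND1 takes part in forming the ubiquinone binding site, ND2, ND4 and ND5 are the large antiporter-like subunits of the proton path, and ND3 and ND4L are small subunits between these and ND1. The plus-strand genes are transcribed together into long precursors, from which the flanking tRNAs are cut out and the mRNAs and rRNAs released. MT-ND4L and MT-ND4 stay joined as 1 mRNA with overlapping reading frames. Several of these mRNAs end within the stop codon, which the poly(A) tail then completes.

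The first 30 bases of each annotated transcript are shown because the members differ in their start codon, given in capitals, 5′ to 3′ on the plus strand of the mitochondrial chromosome (MT) of GRCh38, from the GENCODE 29 transcript sequences.
MT-ND1: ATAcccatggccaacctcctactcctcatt
MT-ND2: ATTaatcccctggcccaacccgtcatctac
MT-ND3: ATAaacttcgccttaattttaataatcaac
MT-ND4L: ATGcccctcatttacataaatattatacta
MT-ND4: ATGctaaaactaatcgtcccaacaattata
MT-ND5: ATAaccatgcacactactataaccacccta

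The last 30 bases are shown because the members differ in how much of the stop codon is encoded, which is in capitals.
MT-ND1: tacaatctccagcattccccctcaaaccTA
MT-ND2: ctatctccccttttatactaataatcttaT
MT-ND3: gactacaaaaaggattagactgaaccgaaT
MT-ND4L: gtacataacctaaacctactccaatgcTAA
MT-ND4: accccgacatcattaccgggttttcctctT
MT-ND5: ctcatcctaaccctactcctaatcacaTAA
MT-ND4L and MT-ND4 begin with ATG, MT-ND1, MT-ND3 and MT-ND5 with ATA and MT-ND2 with ATT, whereas the other 7 mitochondrial mRNAs begin with ATG in the same source. MT-ND4L and MT-ND5 end in a full stop codon, MT-ND1 ends in its first 2 bases and MT-ND2, MT-ND3 and MT-ND4 in its first base. The 6 mRNAs are single-exon transcripts of 956, 1042, 346, 297, 1378 and 1812 bases in their order along the genome. They lie at 3307 to 4262 (MT-ND1), 4470 to 5511 (MT-ND2), 10059 to 10404 (MT-ND3), 10470 to 10766 (MT-ND4L), 10760 to 12137 (MT-ND4) and 12337 to 14148 (MT-ND5) on chromosome MT, by the coordinates of the table, and all 37 mitochondrial transcripts have the same coordinates in GENCODE 29. A tRNA gene of the same strand directly abuts each of them on at least 1 side. MT-ND1 has MT-TL1 before it, 2 bases away, and MT-TI directly after it, MT-ND2 lies between MT-TM and MT-TW, MT-ND3 between MT-TG and MT-TR, and MT-ND5 follows MT-TL2. No annotated gene overlapped any of the 6 on the opposite strand.

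MT-ND4L and MT-ND4 share 7 bases, at 10760 to 10766, which hold the start codon of MT-ND4 and the stop codon of MT-ND4L. The shared bases are in capitals in the joined sequence.
MT-ND4L/MT-ND4: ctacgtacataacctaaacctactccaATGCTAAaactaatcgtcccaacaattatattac
All 6 sequences were poor in G, with 9.50% (MT-ND2) to 12.1% (MT-ND4L), whereas MT-ND6, the complex I subunit of the minus strand, had 35.6%. Their C content ran from 29.5% in MT-ND3 to 36.0% in MT-ND1.

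The libraries held 53127020 to 80559726 mapped fragments by the scaling of the deposited values. Each member rested on many fragments, from 49784 counts of MT-ND3 in sh_0092339 replicate 1 to 943835 counts of MT-ND4 in sh_0092339 replicate 2. Counting error was therefore small beside the spread between replicates: the 95% Wilson interval of the share of fragments on MT-ND4 reached at most 0.00290 percentage points to either side. Such intervals cover counting error only. KLK3, a marker of prostate luminal cells, was not in the analysed rows, nor was hsa_circ_0092339, so neither the cell type nor the knockdown was checked here. These are bulk samples, in which fewer cells with a transcript and less of it per cell cannot be told apart.

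The 6 mRNAs were abundant and differed little between sh_0092339 and NC. Levels are given in FPKM, fragments scaled by transcript length and by how many fragments a library mapped. They were tested by limma on log2(FPKM + 1), over all 45 isoforms with a mean of at least 1 FPKM, with Benjamini-Hochberg adjustment and a threshold of 0.05. None of the 6 passed the test, with adjusted p from 0.195 (MT-ND3) to 0.891 (MT-ND1), and none had an unadjusted p under 0.05. Among all tested isoforms 35.6% were called. Of the 45, 37 were transcripts of the mitochondrial genome, among which 7 rose and 8 fell, so this background is mostly the genome of the members. The median log2 fold change over the 6 was 0.05, against 0.03 over all tested isoforms.

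MT-ND4, which encodes an antiporter-like subunit, had the highest level of the 6 in every library. It stood at 8569, 8502 and 8110 FPKM in sh_0092339, against 8892, 8097 and 8568 FPKM in NC. The groups overlapped fully, and the log2 fold change was -0.02 ± 0.0459 (SE, limma adjusted p = 0.751). The 95% interval of the fold change was 0.912 to 1.07 and its sign was positive with quantile normalization, without sh_0092339 replicate 3 or without NC replicate 1.

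MT-ND4L, which shares its mRNA with MT-ND4, had 6737, 6591 and 6212 FPKM in sh_0092339, against 6314, 6230 and 6670 FPKM in NC. The sh_0092339 libraries held both the highest and the lowest of the 6 values. Its log2 fold change was 0.02 ± 0.0470 (limma adjusted p = 0.722), with a 95% interval of the fold change from 0.939 to 1.10. The sign was negative with quantile normalization, median centring, edgeR with TMM factors, scaling to the mitochondrial mRNAs and without sh_0092339 replicate 1.

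MT-ND1, whose subunit borders the ubiquinone site, had 6198, 6329 and 5675 FPKM in sh_0092339, against 6772, 5712 and 5891 FPKM in NC. NC replicate 1 was the highest library and sh_0092339 replicate 3 the lowest, so the spread inside each group exceeded the difference between their means. The log2 fold change was -0.01 ± 0.0785 (limma adjusted p = 0.891; 95% interval of the fold change 0.868 to 1.13), and its sign was positive without NC replicate 1 or without sh_0092339 replicate 3.

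MT-ND2 had 4651, 4983 and 4285 FPKM in sh_0092339, against 4636, 4216 and 4315 FPKM in NC. Of the sh_0092339 libraries 2 lay above all NC libraries, the first of them by little. The log2 fold change was 0.08 ± 0.0690 (limma adjusted p = 0.419; 95% interval of the fold change 0.939 to 1.19). It passed the test only with quantile normalization, where it was 0.46, and had a negative sign with median centring.

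MT-ND3, one of the small subunits, had 2708, 2783 and 2812 FPKM in sh_0092339, against 2681, 2494 and 2649 FPKM in NC. It was the 1 member whose groups did not overlap, and the gap between the nearest libraries of the groups was small beside the range within NC. Among all tested isoforms 55.6% had groups that did not overlap, so this is not a result about MT-ND3. The log2 fold change was 0.09 ± 0.0472 (limma adjusted p = 0.195; 95% interval of the fold change 0.980 to 1.15).

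MT-ND5, the longest of the 6 and the last before MT-CYB on the plus strand, had 2845, 2549 and 2372 FPKM in sh_0092339, against 2548, 2380 and 2295 FPKM in NC. The sh_0092339 value of replicate 1 stood apart from the other 5 libraries, and the groups overlapped. The log2 fold change was the highest of the 6, 0.10 ± 0.0812 (limma adjusted p = 0.385; 95% interval of the fold change 0.935 to 1.23). With median centring, which moved the median log2 fold change of all tested isoforms by -0.18, MT-ND5, MT-ND2 and MT-ND3 had a negative sign like the other 3.

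**Figure D1:**
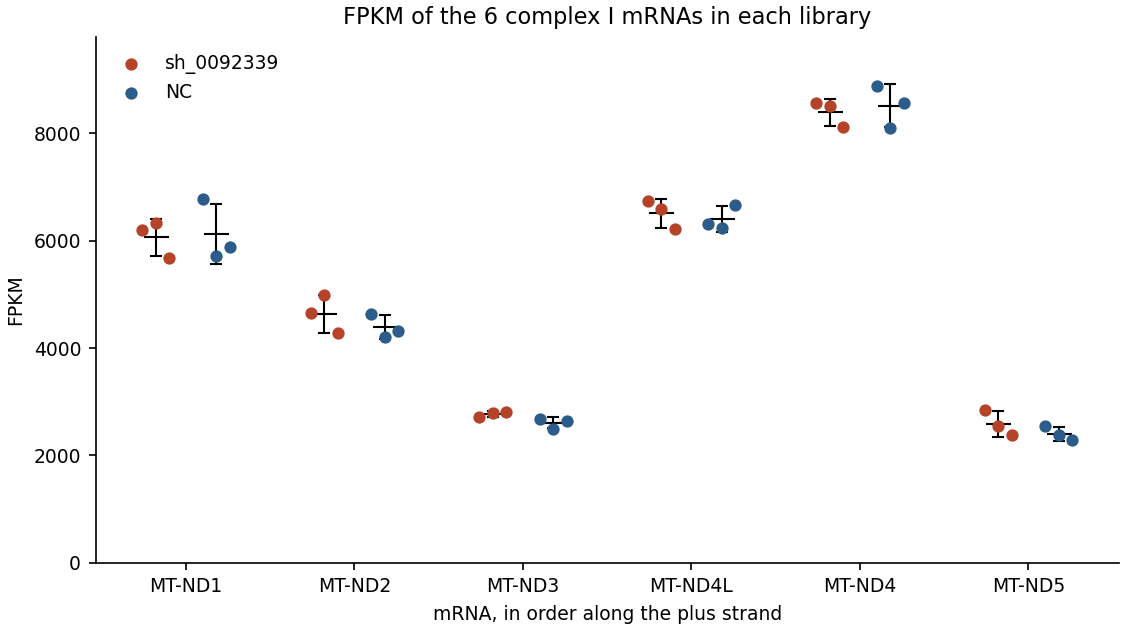
FPKM of each complex I mRNA (y axis) in order along the plus strand (x axis), with 1 point per library, sh_0092339 left of NC, and the mean with SD over 3 libraries as a black mark. The groups overlap for each mRNA except MT-ND3, and the means run from 2589 FPKM in sh_0092339 and 2408 FPKM in NC for MT-ND5 to 8394 FPKM in sh_0092339 and 8519 FPKM in NC for MT-ND4.

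The order of levels was nearly the same in all libraries. MT-ND4 was above MT-ND4L in 6 of 6 libraries, by a ratio of 1.27 to 1.41, and MT-ND1 above MT-ND2 in 6 of 6, by 1.27 to 1.46. MT-ND2 was above MT-ND3 in 6 of 6 as well, by 1.52 to 1.79. MT-ND4L and MT-ND1 could not be ordered: MT-ND4L was higher in 5 libraries and MT-ND1 in NC replicate 1. MT-ND3 and MT-ND5 could not be ordered either, since MT-ND5 was higher in sh_0092339 replicate 1 and MT-ND3 in the other 5. The highest member exceeded the lowest by 3.16 to 3.73 times within a library. The levels did not follow the order along the genome, since MT-ND3, at 6.75 kb from the start of MT-ND1, was far below MT-ND4L and MT-ND4, which begin at 7.16 and 7.45 kb. The members are 297 to 1812 bases long, and how length affects levels compared between members was not tested.

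Several libraries had most members on the same side of their means. In sh_0092339 replicates 1 and 2 all 6 lay above their own mean over libraries, in sh_0092339 replicate 3 only 1 of 6 did, and in NC replicate 2 none did. The other libraries were mixed, with 4 of 6 above in NC replicate 1 and 2 of 6 in NC replicate 3. The mean log2 deviation ran from -0.08 in NC replicate 2 to 0.06 in sh_0092339 replicate 1. The summed level was 31709, 31738 and 29466 FPKM in sh_0092339, against 31842, 29129 and 30389 FPKM in NC, so the groups overlapped. By counts the 6 mRNAs took 2.98 ± 0.139% of the mapped fragments in sh_0092339 and 2.93 ± 0.150% in NC (SD, n = 3 each).

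A share of the summed mitochondrial mRNA does not depend on how a library was scaled, but it does depend on the levels of the other mRNAs in the sum. MT-ND4 made up 9.80%, 9.70% and 9.81% of the summed FPKM of the 13 mitochondrial mRNAs in sh_0092339, against 10.2%, 10.1% and 10.4% in NC. The 2 groups did not overlap, and the difference of -0.460 percentage points exceeded the SD within either group (0.0616 and 0.114). Its exact two-sided permutation p was 0.1, the smallest that 3 against 3 libraries allow, so this test cannot pass 0.05, and it was 0.186 after adjustment over the 13 mRNAs. In the limma fit on values scaled to the summed mitochondrial mRNA, MT-ND4 fell relative to that sum by 0.07 on the log2 scale (95% interval -0.10 to -0.03). It was called there (adjusted p = 0.0201). Under this scaling 48.9% of the tested isoforms were called, and MT-ND4 was the 1 member among them. The same fit called 5 other mitochondrial mRNAs: MT-CO1 and MT-CO2 fell by 0.20 and 0.11 on the log2 scale (adjusted p = 0.0144 and 0.0150), more than MT-ND4, and MT-ATP8, MT-ATP6 and MT-CO3 rose by 0.13, 0.12 and 0.16 (adjusted p = 0.0417, 0.00266 and 0.0336). Without sh_0092339 replicate 1 the adjusted p of MT-ND4 in this limma fit was 0.0522. Over the 6 fits with 1 library left out it ran from 0.0354 to 0.0522. In the fit on unscaled values and the other alternatives MT-ND4 was not called.

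The other 5 shares overlapped between the groups. MT-ND1 held 7.06 ± 0.179% in sh_0092339 and 7.34 ± 0.353% in NC (SD, n = 3 each), and MT-ND4L held 7.58 ± 0.107% in sh_0092339 and 7.70 ± 0.429% in NC. The share of MT-ND2 was 5.40 ± 0.259% in sh_0092339 and 5.27 ± 0.0463% in NC. MT-ND3 and MT-ND5 held similar shares, 3.22 ± 0.159% and 3.01 ± 0.211% in sh_0092339, against 3.13 ± 0.0675% and 2.89 ± 0.106% in NC. Their exact permutation p ran from 0.4 to 0.7, and after adjustment over the 13 mRNAs from 0.65 to 0.758. Of the 13 shares 53.8% did not overlap between the groups, against 1 of 6 among the complex I members.

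**Figure D2:**
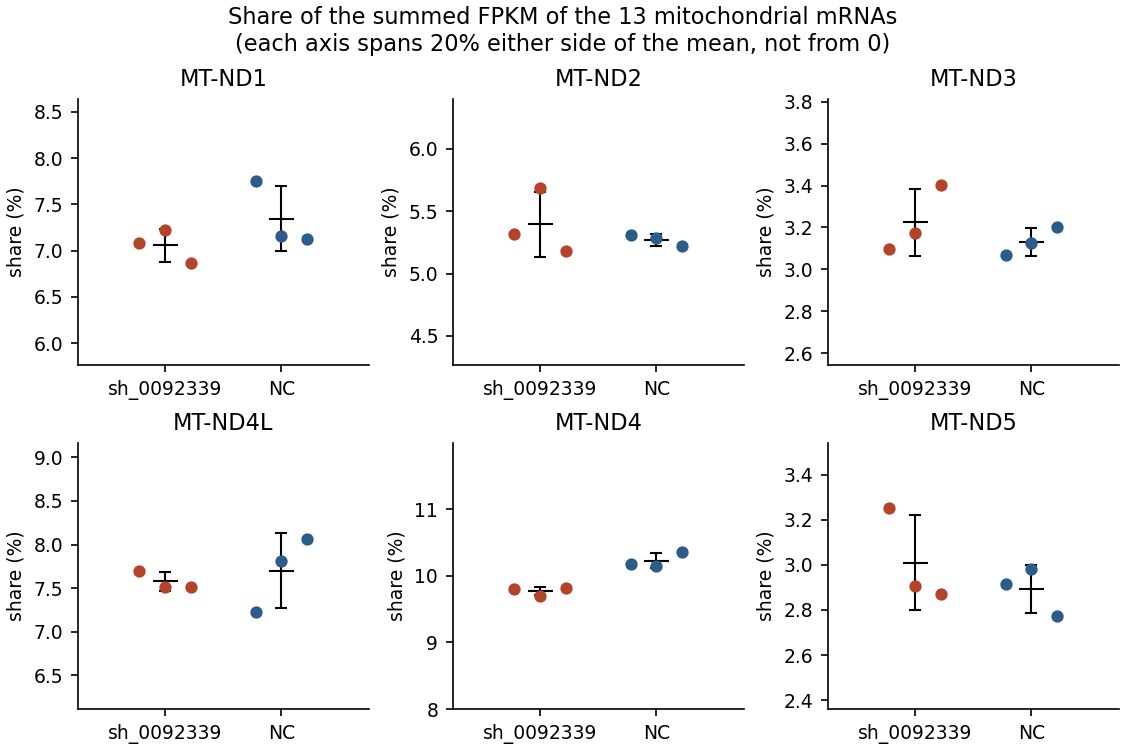
Share of each complex I mRNA in the summed FPKM of the 13 mitochondrial mRNAs (y axis, percent, not starting at 0) in each library, sh_0092339 left of NC, with mean and SD over 3 libraries. The points of MT-ND4 separate, from 9.70% to 9.81% in sh_0092339 and from 10.1% to 10.4% in NC, and those of the other 5 mRNAs overlap.

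Added up, the 6 members held 36.3%, 36.2% and 35.6% of the summed mRNA FPKM in sh_0092339, against 36.4%, 36.5% and 36.7% in NC. These values did not overlap between the groups. Summed as counts, in which long mRNAs weigh more, the members held 41.2%, 40.4% and 39.9% of the mRNA counts in sh_0092339, against 40.5%, 40.2% and 40.5% in NC, which did overlap. The small difference in the FPKM share thus depended on the weight given to each mRNA. Among the other 7 mitochondrial mRNAs, MT-ATP6 and MT-CO3 rose, by ratios of 1.12 and 1.15 (limma adjusted p = 0.0433 and 0.0317), while MT-ATP8 (1.13), MT-CYB (1.07), MT-ND6 (1.01), MT-CO2 (0.956) and MT-CO1 (0.899) did not pass the test on unscaled values. Neither rise was called without sh_0092339 replicate 1, 2 or 3, without NC replicate 2 or 3, with no low-value filter, or with quantile normalization or median centring. MT-ATP6 was not called by edgeR with mapped fragments only either, and it had a negative sign with median centring.

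Ratios of neighbouring members within a library are likewise free of its scaling. Of the 78 ratios between the 13 mRNAs, 39.7% had groups that did not overlap, and of the 15 ratios among the 6 members 20% did not. The ratio of MT-ND1 to MT-ND2 was 1.33, 1.27 and 1.32 in sh_0092339, against 1.46, 1.35 and 1.37 in NC. It was lower in each sh_0092339 library than in each NC library, with a log2 difference of -0.09 (exact two-sided permutation p = 0.1, 0.252 after adjustment over the 78 ratios). The ratio of MT-ND4 to MT-ND5 was 3.01, 3.33 and 3.42 in sh_0092339, against 3.49, 3.40 and 3.73 in NC, and the groups overlapped (log2 difference -0.12, exact p = 0.2, adjusted 0.339).

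For the 2 parts of the joined mRNA, MT-ND4L stood to MT-ND4 as 0.786, 0.775 and 0.766 in sh_0092339, against 0.710, 0.769 and 0.778 in NC, where replicate 1 was the low one (log2 difference 0.04, exact permutation p = 0.5, adjusted 0.619). The level per base of MT-ND4L was thus below that of MT-ND4 in every library although both lie on 1 mRNA. FPKM divides by the full transcript length, 297 and 1378 bases here, and whether length lowers the value of MT-ND4L was not tested. The division of fragments across the 7 shared bases is not stated in the labels or headers. The ratios of MT-ND2 to MT-ND3 and of MT-ND3 to MT-ND4L overlapped too, with log2 differences of -0.01 (exact p = 0.9) and 0.06 (exact p = 0.4).

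Set against each of the other 12 mitochondrial mRNAs, MT-ND4 had a lower ratio in sh_0092339 without overlap in 6 pairs (MT-ND2, MT-ND3, MT-ATP8, MT-ATP6, MT-CO3 and MT-CYB) and a higher one in 1 (MT-CO1). MT-ND1 was lower in 5 and higher in 1, MT-ND4L lower in 3, MT-ND2 higher in 4 and MT-ND3 higher in 3. MT-ND5 was separated in 1 of 12 only, being higher relative to MT-CO1. Of all 78 pairs 39.7% had groups that did not overlap. The percentage was 58.3 for MT-ND4, 50 for MT-ND1, 33.3 for MT-ND2, 25 for MT-ND3 and MT-ND4L and 8.33 for MT-ND5. These pairs share their mRNAs and libraries and are a description.

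Several transcripts beside the members passed the test, although no member did. MT-ND1 follows MT-RNR2, the 16S rRNA, and the tRNA MT-TL1 on the same precursor. MT-RNR2 had 2346, 2282 and 2213 FPKM in sh_0092339, against 5182, 4854 and 5096 FPKM in NC, and fell (limma adjusted p = 1.23e-05), as did MT-TL1 (ratio 0.697, adjusted p = 0.00977). The ratio of MT-ND1 to MT-RNR2 was accordingly 2.64, 2.77 and 2.56 in sh_0092339, against 1.31, 1.18 and 1.16 in NC, and that of MT-ND1 to MT-TL1 was 7.80, 8.24 and 8.06, against 5.69, 5.62 and 5.65 in NC. Both ratios were higher in sh_0092339 with no overlap, and their exact permutation p was 0.1, or 0.12 after adjustment over the 12 ratios computed. These were 11 of members to transcripts near them and that of MT-CO1 to MT-RNR2. Among the 12, only MT-ND3 to MT-TG and MT-ND5 to MT-ND6 had groups that overlapped. MT-CO1, which is no member and no neighbour of MT-RNR2, also had a higher ratio to it without overlap, 3.42, 3.90 and 3.59 in sh_0092339, against 1.87, 1.86 and 1.76 in NC.

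On the other side of MT-ND1 the tRNA MT-TI rose (ratio 1.76, limma adjusted p = 0.0259), so the transcripts directly before and after MT-ND1 changed in opposite directions. MT-TM and MT-TW, which enclose MT-ND2, had ratios of 0.728 and 1.65 and were not called (adjusted p = 0.105 and 0.0667). MT-TR, between MT-ND3 and MT-ND4L, rose by a ratio of 3.48 (adjusted p = 0.0347) from a low level of 12.1, 11.6 and 41.0 FPKM in NC. MT-TG, before MT-ND3, stood at a ratio of 2.66 and did not pass the test (adjusted p = 0.117).

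The 3 tRNAs between MT-ND4 and MT-ND5, which are MT-TH, MT-TS2 and MT-TL2, rose by ratios of 3.16, 3.38 and 3.50 (limma adjusted p = 0.0351, 0.0347 and 0.0433), while the mRNAs on both sides did not pass the test. The levels of these tRNAs in NC were far below the members, from 16.5 FPKM (MT-TL2, replicate 1) to 78.7 FPKM (MT-TH, replicate 3). Their fragment counts are not given here. The ratio of MT-ND4 to MT-TH was 53.1, 81.1 and 62.1 in sh_0092339, against 421, 317 and 109 in NC. The groups did not overlap, but NC replicate 3 lay much nearer to sh_0092339 than the other NC libraries did. The ratio of MT-ND5 to MT-TL2 was 19.3, 51.8 and 31.6 in sh_0092339, against 154, 120 and 55.5 in NC, where replicate 3 was again the lowest. The exact permutation p was 0.1 for both, as for all ratios computed to nearby transcripts except MT-ND3 to MT-TG and MT-ND5 to MT-ND6. The log2 difference was -1.92 for MT-ND4 to MT-TH, and with 1 library left out it ran from -1.53 (without NC replicate 1) to -2.50 (without NC replicate 3). For MT-ND5 to MT-TL2 it was -1.68, and it ran from -1.32 (without sh_0092339 replicate 1) to -2.11 (without NC replicate 3). The rises of MT-TI, MT-TR, MT-TH, MT-TS2 and MT-TL2 were not called without sh_0092339 replicate 1 or 3 or without NC replicate 1 or 2, nor with quantile normalization or no low-value filter. Those of MT-TR, MT-TH, MT-TS2 and MT-TL2 were not called in either edgeR fit, and that of MT-TI was not called with median centring. MT-RNR2 was called under all 15 alternatives. These alternatives used the same libraries, and rRNA removal and poly(A) selection are not given in the sources used. Whether such a step differed between libraries, and so the level of this rRNA, was not tested. MT-TL1 was not called with quantile normalization or median centring.

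**Figure D3:**
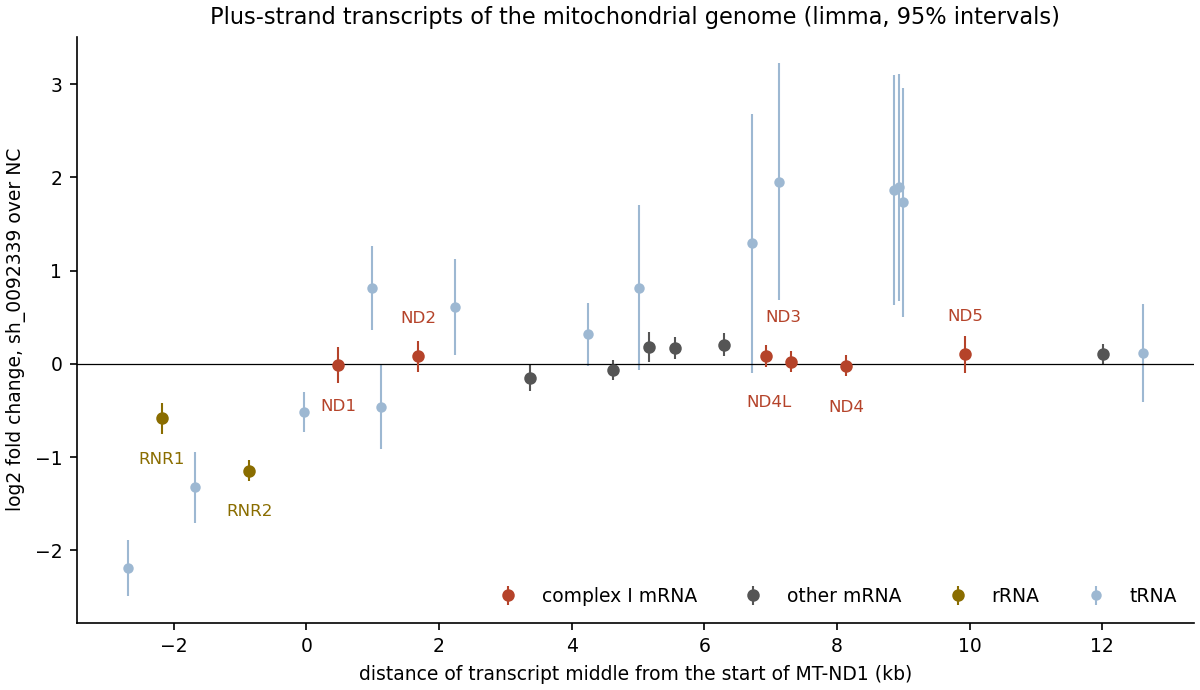
Log2 fold change, sh_0092339 over NC (y axis, limma, bars show 95% intervals), of the tested plus-strand transcripts of the mitochondrial genome against the distance of their middle from the start of MT-ND1 (x axis, kb). The 6 complex I mRNAs lie between -0.02 and 0.10, whereas MT-RNR2 lies at -1.14 and the tRNAs beside MT-ND4 and MT-ND5 lie above 1.7.

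**Figure D4:**
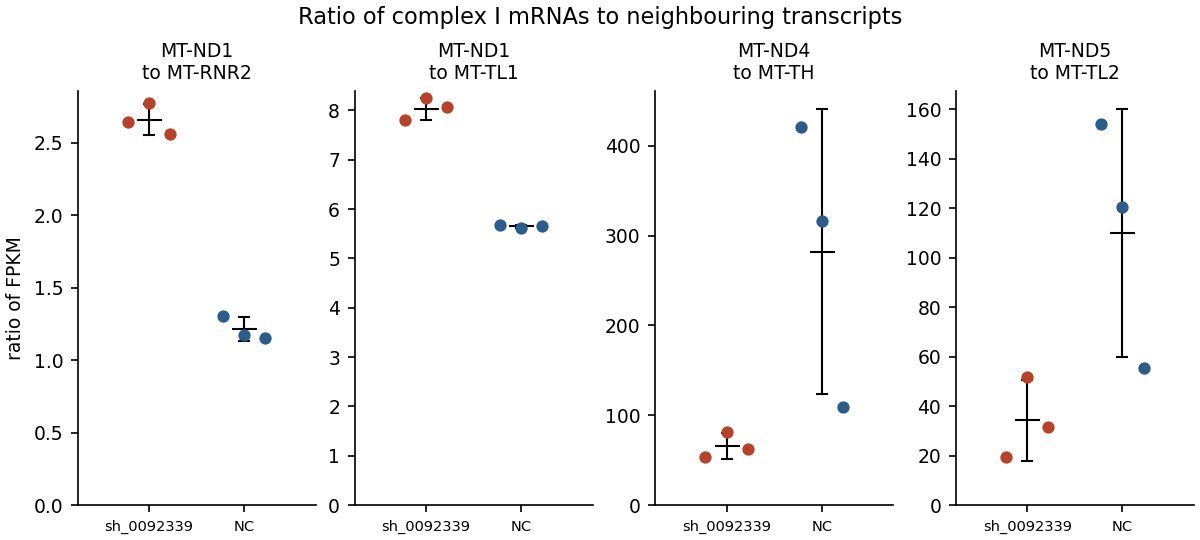
Ratios of FPKM within each library (y axis, from 0) of MT-ND1 to MT-RNR2 and MT-TL1, of MT-ND4 to MT-TH and of MT-ND5 to MT-TL2, sh_0092339 left of NC, with mean and SD over 3 libraries. The ratios of MT-ND1 are higher in sh_0092339, at 2.66 and 8.03 on average against 1.21 and 5.65 in NC, and those to the tRNAs after MT-ND4 and before MT-ND5 are lower.

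MT-ND6, which encodes the remaining complex I subunit and lies on the minus strand directly after MT-ND5, had 2621, 2746 and 2557 FPKM in sh_0092339, against 2988, 2466 and 2410 FPKM in NC (limma log2 fold change 0.02 ± 0.0919, adjusted p = 0.891). The ratio of MT-ND5 to MT-ND6 was 0.981 ± 0.0909 in sh_0092339 and 0.923 ± 0.0615 in NC (SD, n = 3 each; exact permutation p = 0.6).

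The pattern over the 6 libraries most like that of each member was sought among the other 44 tested isoforms, as the smallest root mean square difference of the centred log2(FPKM + 1) values. It was MT-CYB for MT-ND2 (0.0454) and MT-ND3 (0.0323), MT-CO2 for MT-ND4 (0.0291), MT-ND4 for MT-ND4L (0.0485), MT-ND6 for MT-ND1 (0.0443) and the tRNA MT-TP for MT-ND5 (0.0391). The median difference to all tested isoforms was 0.265 to 0.313, and these are descriptions of 6 libraries.

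Most complex I subunits and all its assembly factors are nuclear genes. Of 57 such genes that were listed, 2 were in the analysed rows, and neither passed the test, where 31.4% of the 70 tested genes of that table were called. NDUFAB1, the acyl carrier protein that is also a complex I subunit (chromosome 16, 23581014 to 23596316), had 34.0, 41.3 and 38.0 FPKM in sh_0092339, against 33.3, 35.8 and 32.7 FPKM in NC. Of the sh_0092339 libraries 2 lay above all NC libraries (log2 fold change 0.15 ± 0.0813, limma adjusted p = 0.203). NDUFAF7, a methyltransferase needed for assembly of the complex (chromosome 2, 37231631 to 37249160), had 5.44, 6.26 and 6.87 FPKM in sh_0092339, against 5.66, 6.44 and 5.89 FPKM in NC, and the groups overlapped (log2 fold change 0.04 ± 0.0860, adjusted p = 0.748). It overlaps CEBPZ on the opposite strand, and whether counting used strand is not stated, which leaves its reads uncertain. None of 29 listed genes of mitochondrial RNA synthesis and decay was in the analysed rows.

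The nuclear genome holds copies of mitochondrial genes, and fragments of the mRNAs can match them. The 1 such copy of a member among the analysed gene counts was MTND5P42, a copy of part of MT-ND5 on chromosome 10 (89786610 to 89787107), which had 0 counts in all 6 libraries, and a count of 0 allows up to 3 counts in each. Other copies were not analysed here. The treatment of reads with several matches is not stated in the labels or headers.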

How the data were processed

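Per the labels' protocols, RNA was extracted with Trizol and Illumina libraries were prepared; rRNA removal, poly(A) selection and strand use are not given in the sources used here. Per the submitters' processing notes, cutadapt, HISAT2 and StringTie were used, with build hg18; the mitochondrial coordinates are nevertheless those of GRCh38. The tables used hold, per the file headers, FPKM values and counts that the authors made for genes and for isoforms, and 1 more gene table holds deposited counts. The authors' isoform length, another kind of value, served to recover the mapped fragments per library from isoforms with at least 1000 counts. Features without reads are listed at 0.0001 FPKM. Each table was analysed for 99 rows.

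The FPKM values entered limma 3.58.1 (R 4.3.3, with trend) as log2(FPKM + 1), a scale that understates changes of low isoforms. Tested were the 45 isoforms and 70 genes whose mean reached 1 FPKM. Shares and ratios were compared by exact two-sided permutation tests. Alternatives were edgeR 4.0.16 and DESeq2 1.42.0 on the counts, a pseudocount of 0.1, no filter, other scalings, a replicate block, and fits without each library in turn. Those on MT-ND4 scaled to the mitochondrial mRNAs without each library, and on ratios to neighbouring transcripts, were chosen after seeing the data. The limma procedure was also run on simulated data, in which each row was drawn independently. Many rows here come from shared precursors, so that run does not show how the procedure performs on these data.

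Named genes were the 6 members, the other 7 mRNAs, adjoining transcripts, the isoform most alike to each member and all listed genes present. Members and lists were chosen with earlier results of these data known. Chi-square statistics of counts between replicates were 73.9 to 303 per degree of freedom, so no library was a repeat of another. Same-numbered replicates did not deviate together (correlations -0.257, 0.220 and 0.0231 over 45 isoforms) and were not treated as pairs.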

Additional observations from a re-analysis of the deposited data

How the results depend on the processing

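Of the 45 tested isoforms 16 were called. With no low-value filter 99 isoforms were tested and 5 were called. Quantile normalization called 5 and median centring 8, whereas DESeq2 called 21 and scaling to the mitochondrial mRNAs 22. The edgeR fits tested 44 isoforms and called 10 with mapped fragments only and 14 with TMM. With 1 library left out 5 to 16 were called. The count was 7 without sh_0092339 replicate 1, 5 without sh_0092339 replicate 3, 7 without NC replicate 1 and 6 without NC replicate 2. With the replicate block 15 were called, and it changed no call of a member, but MT-ATP6 (adjusted p = 0.0703), MT-TR (0.0529) and MT-TL2 (0.0696) were no longer called. Quantile normalization, which sets each value by its rank, called MT-ND2 (0.46 on the log2 scale), and scaling to the mitochondrial mRNAs called MT-ND4 (-0.066). No other alternative called a member.

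The sign of the uncalled log2 fold changes was not stable. Median centring, quantile normalization and TMM took their reference from the tested isoforms, mostly transcripts of the mitochondrial genome itself. With median centring the log2 fold change was -0.100 for MT-ND2, -0.092 for MT-ND3, -0.154 for MT-ND4L and -0.077 for MT-ND5. MT-ND4L was also at -0.022 with quantile normalization, -0.022 with scaling to the mitochondrial mRNAs and -0.011 by edgeR with TMM, and MT-ND4 at 0.025 with quantile normalization. With 1 library left out the values ran from -0.060 to 0.063 for MT-ND1, from 0.026 to 0.135 for MT-ND2, from -0.00063 to 0.058 for MT-ND4L and from -0.057 to 0.011 for MT-ND4. NDUFAF7 was at -0.031 without sh_0092339 replicate 3, its lowest, and 0.113 at the highest, and NDUFAB1 at -0.016 with quantile normalization. The differences in share ran from -0.019 to 0.232 percentage points for MT-ND2, from -0.358 to 0.060 for MT-ND4L and from -0.0027 to 0.189 for MT-ND5, and the log2 difference of MT-ND2 to MT-ND3 from -0.057 to 0.060. The share of MT-ND4 (-0.500 to -0.395) and the ratio of MT-ND1 to MT-RNR2 (log2 difference 1.10 to 1.19) kept their direction under every alternative run. So did the shares of MT-ND1 and MT-ND3 and the ratios of neighbouring members, except MT-ND2 to MT-ND3. The ratios of MT-ND1 to MT-TL1, MT-ND4 to MT-TH and MT-ND5 to MT-TL2 did too. Several of these shares and ratios had groups that overlapped, so a kept direction was not particular to MT-ND4. The cause was not tested.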
